A study of Mus musculus with 17 samples.

Results

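Tagged cells sorted from hGFAPCreER:Ai14 mice, which the labels call astrocytes, were compared with cerebral cortex by bulk RNA sequencing. The members were all libraries that the labels place in the sort, which are 3 of the 17 libraries of the series (replicates 1 to 3), and they were set against the 6 cortex libraries (replicates 1 to 6). The remaining 8 libraries are arteriolar smooth muscle cells (aSMCs) sorted with another Cre line, SMACreER, and the reporter Ai14 or Ai47. Of these only the 2 libraries from SMACreER:Ai14 mice enter a tested comparison. The hGFAPCreER transgene makes a tamoxifen-inducible Cre from a human GFAP promoter, and Ai14 is a reporter that makes the red protein tdTomato in a cell, and in its descendants, once Cre has acted there. The labels give cerebral cortex as the tissue of both groups, and describe the cortex libraries as homogenates of wild-type (WT) mice. The paper differs on this point, since it takes its cortex control from part of the dissociated cortices of SMACreER:Ai47 mice, set aside ahead of the sort, so the genotype and the dissociation of the cortex libraries are uncertain. Its general methods place tamoxifen, given by gavage to adult mice, a month or more ahead of RNA sequencing, but they do not describe the hGFAPCreER:Ai14 sort, and the sources used here do not give the age of those mice. Sorting was by reporter and not by a protein of astrocytes, and genotype and handling differ between the groups as well as cell content, so that these cannot be told apart by the comparison. Nothing in the labels says that the replicates are separate animals, so p-values measure the spread between these libraries, which may be technical.

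Astrocytes are the glia that clear glutamate and potassium from around synapses, couple to each other through connexin channels and wrap vessels with endfeet rich in the water channel aquaporin-4. They are usually recognized by Aldh1l1, a folate enzyme, Gja1, the connexin of astrocyte gap junctions, and Slc1a3, a glutamate transporter. Human GFAP promoter transgenes are known to act in other cells as well, among them ependymal cells, which line the ventricles and beat motile cilia to move cerebrospinal fluid. A motile cilium has a core of microtubule doublets with dynein arms, radial spokes and a regulatory complex between the doublets, and it is built by a transport system that cilia of all kinds share.

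The sorted libraries held 4537137 to 7390630 counts and the cortex libraries 5397905 to 7288036, over 21640 gene symbols. From 9083 to 12827 genes had any count in a sorted library, against 12164 to 15941 in a cortex library. Mitochondrially encoded genes took 10.7% to 12.5% of the counts of the sort and 35.7% to 72.9% of those of cortex. Counts under Lars2, the mitochondrial leucyl-tRNA synthetase, took 8.62% to 12.7% and 0.240% to 1.08%. In the aSMC libraries Lars2 took 3.22% and 3.26% with Ai14 and 0.0033% to 0.0067% with Ai47. Whether all counts under Lars2 come from its messenger RNA was not tested. All 13 mitochondrially encoded genes fell in the sort, though mt-Co3 and mt-Nd3 did not pass on library totals alone. Correlations of log2 levels across genes were 0.540 to 0.641 between the sorted libraries, 0.724 to 0.937 between cortex libraries and 0.241 to 0.394 between a sorted and a cortex library. The 3 sorted libraries were therefore less alike than the cortex libraries, and levels are given for each of them. Levels are CPM, counts scaled to a common library total after correction by the trimmed mean of M-values (TMM), and for cortex the lowest, median and highest of the 6 libraries are given. Of 12001 genes tested with edgeR, 1459 (12.2%) were higher in the sort and 2030 (16.9%) were lower at a Benjamini-Hochberg adjusted p under 0.05, with a median log2 fold change over all tested genes of 0.06. Without that scaling, on library totals alone, the median was 0.98 and the counts were 2024 higher and 1393 lower.

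The defining astrocyte genes went different ways. Gja1 (chromosome 10, 56377330 to 56402513, GRCm38, GENCODE M21) stood at 534.8, 266 and 134 CPM in the sort and at 42.6, 50.9 and 174.5 CPM in cortex. Its log2 fold change was 1.97 ± 0.61 (SE, adjusted p = 0.0267), and the groups overlapped only in sorted replicate 3. That call was lost without sorted replicate 1 (1.32, adjusted p = 0.142) and without cortex replicate 3, 4, 5 or 6 (adjusted p = 0.0555 to 0.0585). Slc1a3 (chromosome 15, 8634124 to 8710764) was at 109, 208 and 112 CPM in the sort, against 171, 339 and 780 CPM in cortex. Its log2 fold change of -1.54 ± 0.60 missed the threshold (adjusted p = 0.0678), and it passed without sorted replicate 2 (-2.11, adjusted p = 0.0177). Aldh1l1 (chromosome 6, 90486427 to 90600203) had no count in sorted replicate 1, 80.8 CPM in replicate 2 and 0.630 CPM in replicate 3, against 0.835, 10.5 and 49.0 CPM in cortex. Sorted replicate 2 was thus above all cortex libraries and the other 2 sorted libraries below them. The log2 fold change of Aldh1l1 was 0.50 ± 1.57 (adjusted p = 0.849), and -5.86 (adjusted p = 0.0407) without sorted replicate 2. In exact two-sided permutation tests of log2(CPM + 0.5) over the 84 assignments of the 9 libraries, the differences were 1.97 for Gja1 (p = 0.0476), -1.40 for Slc1a3 (p = 0.0476) and -1.24 for Aldh1l1 (p = 0.524). After Benjamini-Hochberg adjustment over these 3 exact permutation tests p was 0.0714 for Gja1, 0.0714 for Slc1a3 and 0.524 for Aldh1l1, so none passed 0.05, and the smallest unadjusted p the design allows is 0.0238. The markers thus met the astrocyte label only in part, and the libraries are called by their genotype, the hGFAPCreER:Ai14 sort.

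Of 22 astrocyte marker genes, 21 were tested, of which 6 rose in the sort, 10 fell and 5 did not pass, beside 12.2% higher and 16.9% lower among all tested genes. Their median log2 fold change was -1.54, against 0.06 over all tested genes, and their summed level was 4386, 6704 and 4046 CPM in the sort against 7060, 17980 and 33720 CPM in cortex. In bulk RNA, fewer cells of a type and less RNA per cell cannot be told apart.

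The astrocyte genes that rose included those of the perivascular membrane. Aqp4, the water channel of endfeet, was at 782, 700 and 637 CPM in the sort and at 27.6, 128 and 185 CPM in cortex. Its groups did not overlap, and the log2 fold change was 2.62 ± 0.55 (adjusted p = 0.00315). Gpr37l1, a G protein-coupled receptor of glia, was at 689, 272 and 396 CPM against 7.24, 19.7 and 66.1 CPM (3.95 ± 0.70, adjusted p = 0.00108). Mlc1, a membrane protein of astrocyte junctions, stood at 374, 1543 and 439 CPM in the sort, against 8.35, 78.6 and 150.5 CPM in cortex (3.26 ± 0.70, adjusted p = 0.00375). Sox9, a transcription factor of astrocytes and of ependymal cells, was even across the sort at 164, 188 and 168 CPM, against 15.03, 45.8 and 70.4 CPM (1.95 ± 0.54, adjusted p = 0.0157). These genes had every sorted library above every cortex library. Atp1b2, the glial β subunit of the sodium pump, also passed (1.31, adjusted p = 0.048), but not without sorted replicate 2 (0.53, adjusted p = 0.384), sorted replicate 3 or any of the cortex libraries (adjusted p up to 0.111).

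The astrocyte genes that fell included those of glutamate handling. Slc1a2, the main glutamate transporter of forebrain astrocytes, was at 299.8, 867 and 179 CPM in the sort, against 4248, 11730 and 22380 CPM in cortex (-4.82 ± 0.72, adjusted p = 0.000376). Glul, glutamine synthetase, was at 216, 368 and 314 CPM against 1140, 2198 and 3347 CPM (-2.88 ± 0.51, adjusted p = 0.00107). In both of these the highest sorted library lay below the lowest cortex library. Slc4a4, a bicarbonate cotransporter, fell likewise (-3.39 ± 0.73, adjusted p = 0.00371). Gjb6, the second connexin of astrocytes, had no count in any sorted library and 2.87, 24.97 and 44.7 CPM in cortex, so that it was at least 271-fold lower when 3 counts over the group are taken as the floor. Acsbg1, an acyl-CoA synthetase of glia, had 3 counts in the sort and was 791-fold lower (95% exact interval 270 to 3838), and Cldn10 had 1 count and was 380-fold lower (67.9 to 15050). Slc7a10, a D-serine and small amino acid transporter, had no count in the sort and was too low to test.

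The remaining astrocyte markers depended on single libraries or did not pass. Ndrg2 fell (-2.23 ± 0.55, adjusted p = 0.00857), though on library totals alone it missed the threshold (-1.56, adjusted p = 0.103). S100b fell by 2.07 on the log2 scale (adjusted p = 0.023, and 0.0584 without cortex replicate 1). Ntsr2 fell by 5.15 (adjusted p = 0.0274), a call that was lost without sorted replicate 1 (adjusted p = 0.0625), cortex replicate 1 (0.06) or cortex replicate 2 (0.0514). Gfap, whose human promoter drives the transgene, was at 134.5, 34.9 and 221 CPM in the sort and at 16.97, 54.2 and 70.0 CPM in cortex. That difference did not pass (1.36, adjusted p = 0.128), but did without sorted replicate 2 (1.56, adjusted p = 0.0374) or on library totals alone (2.37, adjusted p = 0.0338). Aldoc (-1.47, adjusted p = 0.0956) and Fgfr3 (-0.49, adjusted p = 0.822) did not pass either. The plot of the astrocyte markers shows every library.

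**Figure D1:**
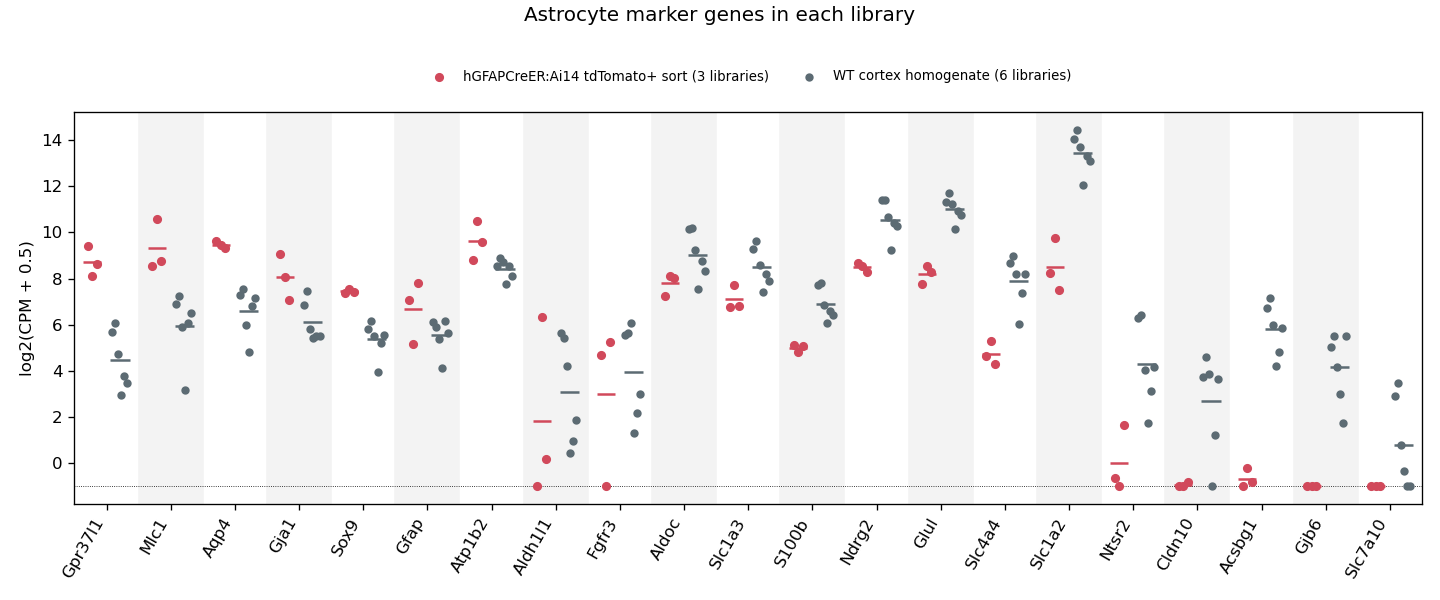
Levels of astrocyte marker genes, as log2(CPM + 0.5), in the 3 libraries of the hGFAPCreER:Ai14 sort and the 6 cortex libraries. Points are libraries, short lines are means of the plotted values and the dotted line is the level of a gene with no counts. Aqp4, Mlc1, Gpr37l1 and Sox9 lie higher in the sort, Slc1a2 and Glul lie lower, and Aldh1l1 spreads over the range of cortex.

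Genes of ependymal and choroid plexus cells were present at high levels in the same libraries. Of the 10 genes of that list, all tested, 7 rose in the sort, none fell and 3 did not pass, beside a background of 12.2% of tested genes, and the 7 rose in every alternative analysis. The median log2 fold change was 7.22. Members with few cortex counts, such as Tmem212 and Pifo, entered the test through the sort, so a fall was hardly open to them. Summed levels were 2946, 4200 and 1363 CPM in the sort and 19.5, 370.5 and 2307 CPM in cortex, where the choroid plexus gene Ttr makes up most of the sum.

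Foxj1, the transcription factor that switches on the genes of motile cilia, was at 357, 726 and 329 CPM in the sort. In cortex its lowest, median and highest levels were 0, 1.11 and 1.95 CPM. The log2 fold change was 8.82 ± 0.96 (adjusted p = 4.16e-05), and the groups were far apart. Rarres2, which encodes the secreted protein chemerin, was at 415, 801 and 342 CPM in the sort, against 0, 1.63 and 12.1 CPM in cortex (7.35 ± 0.99, adjusted p = 0.000175). Ccdc153, a marker of ependymal cells, was at 269, 415 and 144.5 CPM against 0, 0.233 and 2.78 CPM (8.81 ± 1.20, adjusted p = 0.000188). Tmem212, another marker of these cells, had 414.5, 140 and 267 CPM in the sort and 3 counts over the 6 cortex libraries, and was 2980-fold higher (95% exact interval 1019 to 14450). Pifo, which encodes a protein of the ciliary base, had 248, 59.7 and 197 CPM in the sort and 1 count in cortex (5803-fold higher, 1041 to 229200). Dynlrb2, a dynein light chain of cilia, and Folr1, a folate receptor of the choroid plexus, also rose (6.63 ± 1.48, adjusted p = 0.00482, and 7.09 ± 1.135, adjusted p = 0.000555).

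The 3 members that did not pass are choroid plexus genes. Ttr, the thyroid hormone carrier transthyretin, was at 984, 1721 and 4.20 CPM in the sort and at 16.7, 350 and 2287 CPM in cortex (0.39, adjusted p = 0.846). Sorted replicates 1 and 2 thus lay within the range of cortex and replicate 3 below it. Kl, the membrane protein klotho, was at 89.3, 2.81 and 0.630 CPM in the sort, against 1.56, 11.9 and 56.7 CPM in cortex, and Kcne2, a potassium channel subunit, was at 5.32, 0 and 0 CPM, against 0, 0.556 and 3.45 CPM. How much of each astrocyte result came from cells with these ependymal genes was not tested.

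**Figure D2:**
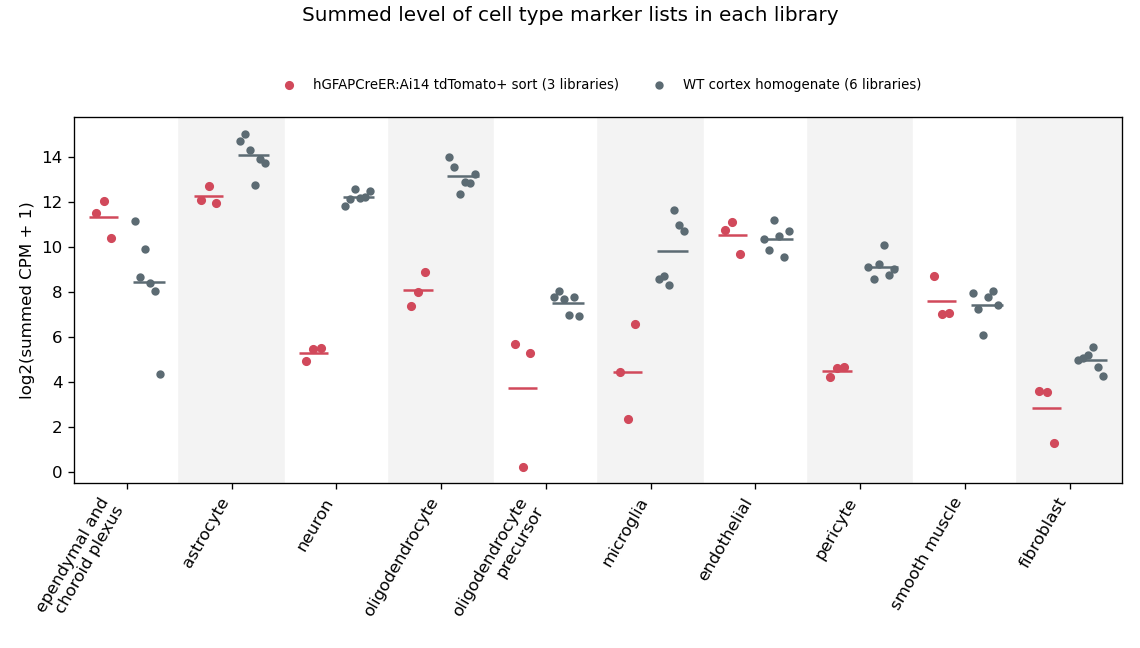
Summed level of each cell type marker list, as log2(summed CPM + 1), in the hGFAPCreER:Ai14 sort and in cortex. Points are libraries and short lines are means of the plotted values. Neuronal and microglial sums are lower in all 3 sorted libraries than in any cortex library, while ependymal sums of the sort lie in the upper part of the range of cortex or above it.

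Gene families of the cilium were high as well. These families were chosen after the values were seen, so their counts are given as a description. The families were taken by gene symbol, so members under other symbols may be missing. They were axonemal dyneins (Dnah, Dnai and Dnali1), dynein assembly factors (Dnaaf), cilia and flagella associated proteins (Cfap) and radial spoke heads (Rsph). Also taken were tektins (Tekt), the dynein regulatory complex (Drc), intraflagellar transport (Ift) and Bardet-Biedl syndrome proteins (Bbs). Of their 92 genes 75 were tested, of which 53 were higher in the sort, none was lower and 22 did not pass, beside 12.2% higher and 16.9% lower among all tested genes. Leaving out each library in turn gave 44 to 56 higher. Their summed level was 6701, 10390 and 4675 CPM in the sort and 320, 360 and 472 CPM in cortex. Members with almost no cortex counts, such as Dnah12 with 3 and Cfap206 with 2, entered the test only through the sort. A call of lower was hardly open to such members.

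Members from each piece of the cilium stood apart. Among the dyneins, which bend the cilium, Dnali1 was at 173, 236 and 109.8 CPM in the sort with a highest cortex level of 1.19 CPM (8.60 ± 1.04, adjusted p = 8.6e-05). Dnah9, a heavy chain of the outer arm, was at 26.1, 322 and 104 CPM in the sort (7.71 ± 1.23, adjusted p = 0.000532). Dnah12, a heavy chain of the inner arm, had 85.3, 368 and 44.3 CPM in the sort and 3 counts in all of cortex (1291-fold higher, 95% exact interval 441.5 to 6265). Cfap161, a protein of the microtubule lumen, was at 681.5, 647 and 319 CPM in the sort, against 0, 0.700 and 2.51 CPM in cortex (9.26 ± 1.099, adjusted p = 7.5e-05). Cfap126, also called Flattop, was at 323, 694 and 182 CPM, against 0, 1.16 and 1.56 CPM (8.72 ± 0.86, adjusted p = 2.3e-05). Rsph1, of the radial spoke head, was at 249, 401 and 270 CPM against 0, 0.180 and 2.80 CPM (8.80 ± 1.128, adjusted p = 0.000123). In all of these genes the lowest sorted library exceeded the highest cortex library. Tekt1, a filament protein of the doublet, rose by 9.08 ± 1.27 (adjusted p = 0.000238), and Drc7, of the regulatory complex, by 7.10 (adjusted p = 0.000811). All 3 Drc genes were higher, as were 20 of 25 tested Cfap genes, 8 of 12 Dnah genes and 4 of 6 Rsph genes.

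Transport genes that non-motile cilia also use differed by less. Ift57 was at 134, 125.5 and 140 CPM in the sort and at 9.69, 17.2 and 32.9 CPM in cortex (2.86 ± 0.59, adjusted p = 0.00302), and Bbs9 was at 168, 510 and 157.5 CPM in the sort (3.22, adjusted p = 0.00103). Of the Ift genes 7 of 14 were higher, and of the Bbs genes 5 of 7 tested. Dnah8, a heavy chain best known from sperm, was the only tested member with a negative estimate, and it did not pass (-5.20, adjusted p = 0.098). The difference between the motile and the transport families was not tested.

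Regulators that act with Foxj1 were also found, again chosen after the values were seen. Of 8, Foxj1 among them, 5 were tested and all 5 were higher, beside 12.2% higher among all tested genes. Members with few cortex counts, such as Trp73, entered the test through the sort, so a fall was hardly open to them. Myb, which acts early in cells that make many cilia, was at 169, 549.5 and 115 CPM in the sort, against 0, 0.335 and 1.38 CPM in cortex (9.04 ± 0.98, adjusted p = 3.92e-05). Rfx2 was at 170, 29.0 and 172 CPM against 0, 0.910 and 2.80 CPM (6.73 ± 1.08, adjusted p = 0.000554), and Rfx3 was at 278.5, 648 and 142 CPM against 20.9, 52.3 and 87.3 CPM (2.67 ± 0.58, adjusted p = 0.004). Both are RFX factors, which bind the X-box of ciliary promoters. Trp73, a p53 relative, had 1 count in cortex and 3.25, 25.3 and 34.2 CPM in the sort (753-fold higher, 95% exact interval 135 to 29790). Gmnc and Ccno, which drive the making of many cilia in developing cells, were too low across libraries to test, with 0, 111 and 2.17 CPM and 0, 112 and 24.4 CPM in the sort, and Mcidas had no count there. Gmnc and Ccno were thus highest in sorted replicate 2.

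**Figure D3:**
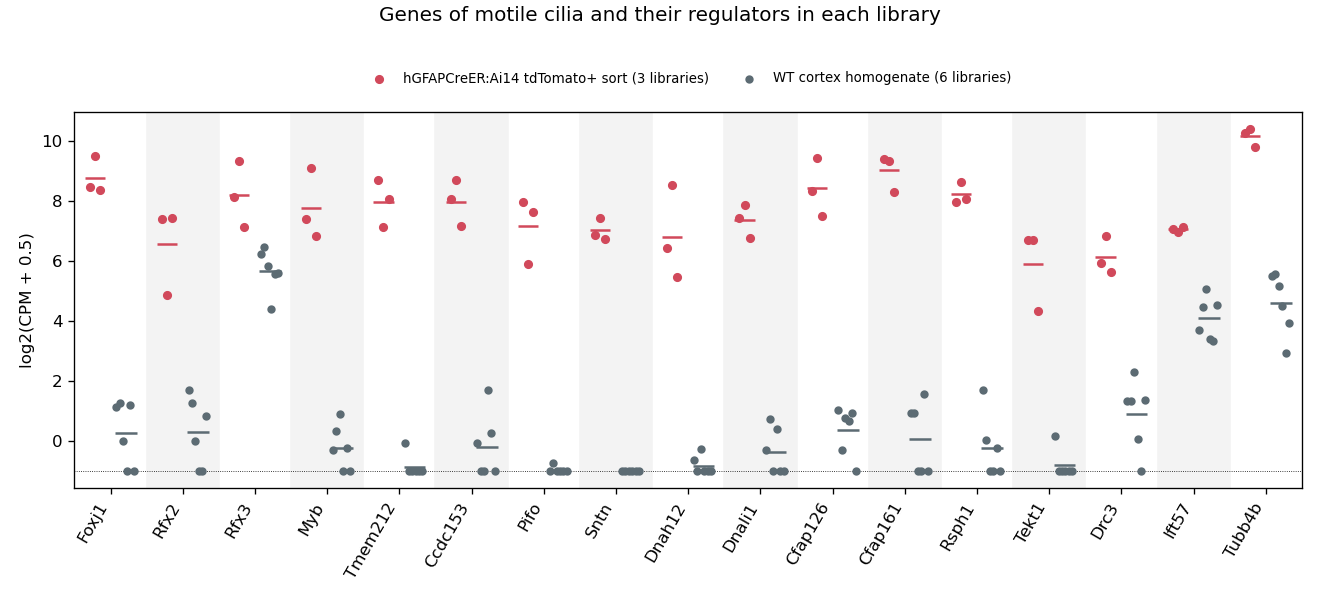
Levels of genes of motile cilia and their regulators, as log2(CPM + 0.5), in the hGFAPCreER:Ai14 sort and in cortex, with genes chosen after values were seen. Points are libraries, short lines are means of the plotted values and the dotted line is the level of a gene with no counts. Foxj1, Rsph1 and Cfap161 lie near the no-count line in cortex and far above it in each sorted library.

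The largest rises of the whole comparison were led by the same kind of gene. Sntn, which encodes sentan, a protein of the tips of motile cilia, had 118, 173 and 107 CPM in the sort and no count in any cortex library, which makes it at least 1304-fold higher. Mdh1b, a relative of malate dehydrogenase, and Zfp474, a zinc finger protein, likewise had no cortex count (at least 675-fold and 556-fold higher). Cfap206, of the radial spoke base, had 253, 300.4 and 90.4 CPM in the sort and was 2831-fold higher (95% exact interval 783 to 23380). Fam166b had 190, 488 and 109.8 CPM (3327-fold, 921 to 27480). Some of the 15 rested on a single library. Ccdc89 was at 48.6, 919 and 5.599 CPM in the sort, Crygn, a crystallin, at 7.66, 913 and 2.66 CPM, and Htr5b, a serotonin receptor, at 1.17, 171.5 and 9.45 CPM, each highest in replicate 2. Hdc, the enzyme that makes histamine, was at 225, 1669 and 126 CPM in the sort with a highest cortex level of 0.933 CPM (11.15 ± 1.20, adjusted p = 3.77e-05). The others were Pifo and Tmem212, described above, and Lrrc36, Morn3, Dthd1 and Lpar3, a receptor for lysophosphatidic acid.

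The promoters of these genes were read for the letters that RFX and forkhead factors are known to bind. GTTGCC is the core of the X-box and TGTTTAC is the forkhead sequence, both searched on either strand in the 250 bases before and 50 after the start of each gene in RefSeq (GRCm38.p6). The 4 promoters printed next are shown because their genes were among the 15 largest rises, had at most 1 count in cortex and hold the X-box core. Capitals mark the X-box core and, in Sntn, also the forkhead sequence, each as it reads on the printed strand of the gene. Sntn lies at chr14:13670626-13670925 on the plus strand, Pifo at chr3:106001448-106001747 on the minus strand, Mdh1b at chr1:63730269-63730568 on the minus strand and Lpar3 at chr3:146220711-146221010 on the plus strand.
Sntn: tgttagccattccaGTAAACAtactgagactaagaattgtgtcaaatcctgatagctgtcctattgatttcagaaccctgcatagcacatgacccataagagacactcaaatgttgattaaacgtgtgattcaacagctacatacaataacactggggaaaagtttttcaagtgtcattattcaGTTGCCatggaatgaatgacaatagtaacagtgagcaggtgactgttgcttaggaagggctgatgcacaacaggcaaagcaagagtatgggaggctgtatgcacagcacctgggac
Pifo: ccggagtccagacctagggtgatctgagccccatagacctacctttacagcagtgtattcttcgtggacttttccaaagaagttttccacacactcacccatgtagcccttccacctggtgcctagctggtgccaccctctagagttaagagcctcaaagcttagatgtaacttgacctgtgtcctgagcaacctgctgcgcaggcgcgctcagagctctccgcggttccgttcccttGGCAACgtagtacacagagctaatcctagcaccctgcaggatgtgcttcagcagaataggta
Mdh1b: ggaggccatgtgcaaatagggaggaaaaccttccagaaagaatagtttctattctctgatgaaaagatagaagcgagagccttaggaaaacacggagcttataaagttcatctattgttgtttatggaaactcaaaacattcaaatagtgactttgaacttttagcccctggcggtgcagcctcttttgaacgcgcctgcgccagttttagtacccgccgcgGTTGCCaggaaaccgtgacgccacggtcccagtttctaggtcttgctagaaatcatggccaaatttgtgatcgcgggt
Lpar3: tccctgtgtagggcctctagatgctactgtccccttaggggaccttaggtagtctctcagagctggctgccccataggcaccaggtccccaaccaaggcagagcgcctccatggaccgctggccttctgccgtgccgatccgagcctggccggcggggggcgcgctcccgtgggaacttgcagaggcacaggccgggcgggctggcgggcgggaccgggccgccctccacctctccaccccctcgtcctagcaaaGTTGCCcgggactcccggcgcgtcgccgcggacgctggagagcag

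Counted by gene, where a gene may have more than 1 promoter, the X-box core stood in a promoter of 4 of the 12 genes with a promoter on hand among the 15 largest rises (33.3%) and of none of the 9 among the 15 largest falls. It stood in a promoter of 30 of 77 genes of the cilium families (39%), of 24.1% of the genes higher in the sort, of 14.1% of the genes lower and of 15.5% of the 9265 tested genes with a promoter. Over all 27025 genes with a promoter the share was 14.1%. The forkhead sequence stood in a promoter of 2 of the 12 genes of the largest rises (16.7%), of 5.19% of the cilium family genes, of 3.15% of the tested genes and of 4.05% of all genes. A match describes the letters of a promoter and does not show that a factor binds there.

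Genes of neurons, microglia and some other cell types of cortex were low in the sort, while the lists of endothelial, smooth muscle and fibroblast genes were less uniform. Counts for the cell type lists, here and in the next paragraphs, stand beside 12.2% higher and 16.9% lower among all tested genes. Of 18 neuronal genes, all tested, 16 fell and none rose, with a median log2 fold change of -8.45 (-7.68 with genes without counts at their bound). Their summed level was 29.9, 42.8 and 44.5 CPM in the sort against 3627, 4737 and 6191 CPM in cortex. Camk2a, the calcium-dependent kinase of excitatory neurons, was at 0.909, 0.351 and 3.08 CPM in the sort and at 2408, 3177 and 4186 CPM in cortex (-11.08 ± 0.90, adjusted p = 9.11e-06). Celf4, an RNA-binding protein of neurons, kept 24.5, 27.2 and 21.97 CPM (-4.19 ± 0.56, adjusted p = 0.000163). Rbfox3, which encodes the neuronal nuclear antigen NeuN, Nefl, Nefm, Gad1, Neurod2 and Neurod6 had no count in any sorted library. Glutamate receptor genes fell with them, in 12 of 12 tested of 13, with sums of 3.38, 1.05 and 2.31 CPM in the sort against 304, 432 and 562.5 CPM in cortex. Among them Grm5 (no count in the sort, at least 191-fold lower) and Grm3 (-7.04 ± 1.28, adjusted p = 0.00128) are also the metabotropic receptors of astrocytes.

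Microglia, the resident macrophages of the brain, left little signal. Of 15 tested microglial genes 12 fell and none rose, with sums of 20.8, 4.04 and 95.5 CPM in the sort and 317, 1047 and 3214 CPM in cortex. Csf1r, the receptor that microglia need to survive, had no count in the sort (at least 1829-fold lower), nor had Tmem119, C1qa, C1qc, Aif1 or Ctss. The highest member in the sort was Sall1, at 4.81, 0.176 and 59.1 CPM. Border macrophage genes fell in 3 of 3 tested, a count that was 1 without sorted replicate 1 or without cortex replicate 1, 2 or 6. None of the genes of other immune cells was abundant enough to test.

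Oligodendrocyte genes were low, and 1 library differed from the others. Of 12 tested, 5 fell and none rose, and 8 fell without sorted replicate 3. Mobp, a myelin protein, was at 1.95, 0.176 and 0.910 CPM in the sort and at 1512, 2124 and 3613 CPM in cortex (-11.08 ± 0.94, adjusted p = 1.08e-05). Mbp, another myelin protein, was at 23.5, 11.4 and 157 CPM. Cldn11, a claudin of the myelin sheath, reached 78.9 CPM, Ermn 64.0 CPM and the transcription factor Sox10 13.9 CPM in replicate 3, with no more than 0.351 CPM in the other 2 sorted libraries. The summed levels were 165, 255 and 480 CPM in the sort against 5312, 8664 and 16280 CPM in cortex. Of the genes of oligodendrocyte precursors 4 of 9 tested fell and none rose, with sums of 50.1, 0.176 and 37.7 CPM against 120, 211.5 and 265 CPM. Olig1, their transcription factor, had 1 count in the sort (1212-fold lower, 95% exact interval 217 to 47900).

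Markers of vessel cells were taken in 3 lists. Of 20 endothelial genes 14 fell and 2 rose, with a median log2 fold change of -6.82 (-5.87 with genes without counts at their bound), yet their sum was 1733, 2251 and 819.5 CPM in the sort against 754, 1378 and 2330 CPM in cortex. That sum was carried by Slc2a1, the glucose transporter GLUT1 of the blood-brain barrier and also of choroid plexus and glia. It was at 1578, 1681 and 678 CPM in the sort, against 95.8, 312 and 391 CPM in cortex (2.21 ± 0.49, adjusted p = 0.00481). Ocln, the tight junction protein occludin, was the other member that rose, at 102, 117.5 and 103 CPM against 8.71, 17.99 and 24.5 CPM (2.69 ± 0.58, adjusted p = 0.00412). Neither gene is made only by endothelium. Mfsd2a, a lipid transporter of the blood-brain barrier, was at 8.96, 377 and 0 CPM in the sort, against 10.8, 19.9 and 26.3 CPM in cortex, high in replicate 2 alone (2.71, adjusted p = 0.126). Several other endothelial members had few counts in the sort. Slco1a4 had 1 count in the sort (4355-fold lower, 95% exact interval 781 to 172000), Cldn5 had 3, and Flt1, a receptor for vascular endothelial growth factor, fell by 10.09 ± 1.06 on the log2 scale (adjusted p = 3.14e-05).

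Pericyte genes fell in 6 of 8 tested, with sums of 17.5, 23.7 and 24.4 CPM in the sort against 380.5, 541 and 1090 CPM in cortex, and Rgs5, a regulator of G protein signalling, was the highest of them at 3.12, 20.5 and 13.4 CPM against 302, 452 and 903.5 CPM (-5.29, adjusted p = 0.00033). The smooth muscle list was less uniform. Its sum was 414, 130 and 135 CPM in the sort against 66.7, 196 and 264 CPM in cortex. Of 9 tested, 4 fell and none rose, and 2 fell without sorted replicate 1, without cortex replicate 1 or on library totals alone. Acta2, smooth muscle actin, was at 46.2, 115 and 103 CPM in the sort against 10.2, 45.5 and 68.5 CPM in cortex (1.06, adjusted p = 0.259). Myl9, a myosin light chain, was at 340, 1.93 and 30.0 CPM, against 6.03, 23.3 and 32.3 CPM (2.44, adjusted p = 0.0762). Myh11, the smooth muscle myosin, fell, at 1.56, 5.62 and 0.350 CPM against 6.21, 49.97 and 94.4 CPM (-4.35 ± 1.15, adjusted p = 0.0121). Fibroblast genes did not pass in either direction in 5 tested, with sums of 11.04, 10.9 and 1.47 CPM in the sort against 17.98, 31.7 and 46.5 CPM, and hemoglobin and other red blood cell genes fell in 4 of 5, or in 2 without sorted replicate 3. Of 7 tested genes of neural progenitors and dividing cells 5 fell and none rose, among them Nes, the filament protein nestin, with 4 counts in the sort (-7.25 ± 1.23, adjusted p = 0.000852).

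**Figure D4:**
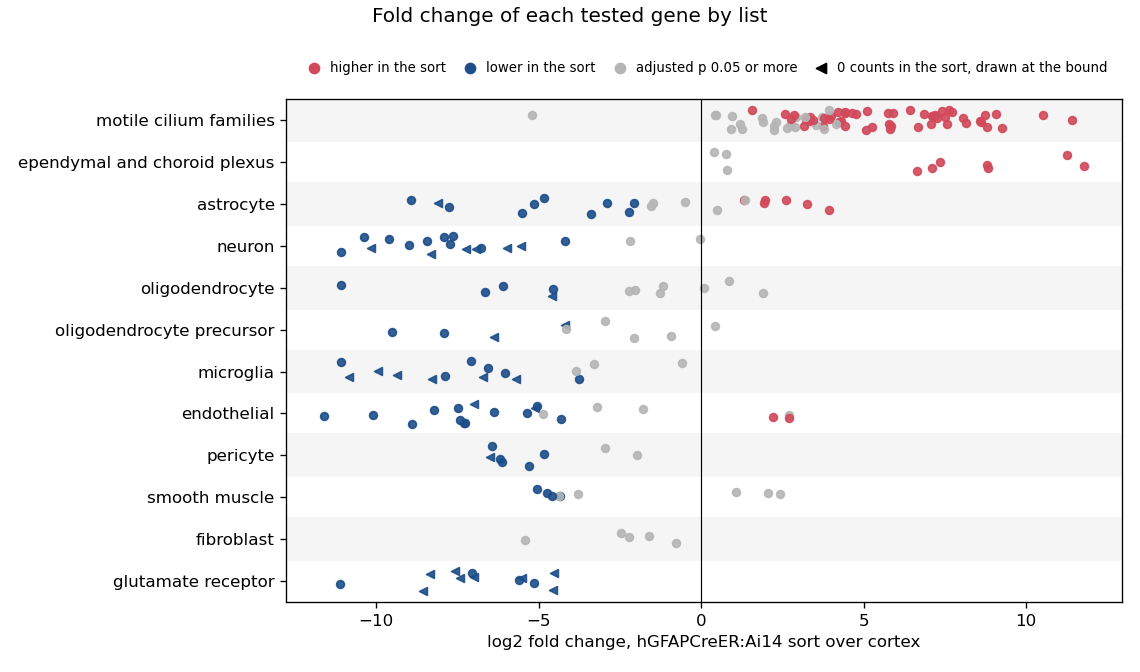
Log2 fold change of each tested gene, hGFAPCreER:Ai14 sort over cortex, by cell type list. Red points are higher and blue points lower at adjusted p under 0.05, grey points did not pass, and triangles are genes with no counts in the sort, drawn at their bound. Neuronal and microglial genes lie below 0, ependymal genes above it, and astrocyte genes on both sides.

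The counts for functional groups of astrocytes stand beside 12.2% higher and 16.9% lower among all tested genes. Of 9 tested genes of transmitter uptake 5 fell and none rose, or 3 without sorted replicate 1, without cortex replicate 1 or on library totals alone. Slc6a11, a GABA transporter of astrocytes, was at 10.1, 11.9 and 1.05 CPM in the sort, against 41.2, 117 and 182 CPM in cortex (-3.85 ± 0.91, adjusted p = 0.00693), and with Slc1a2 and Glul it fell in every analysis that left a library out. Ion and water transport genes rose in 4 of 10 and fell in 2, and the number of rises was 2 without any of the libraries other than sorted replicate 1. Aqp4 and Mlc1 passed with each library left out in turn. Kcnj10, the main potassium channel of astrocytes, did not pass at 211, 960 and 332 CPM in the sort against 144, 436 and 709 CPM in cortex (0.24, adjusted p = 0.804). Among 7 tested proteins of the endfoot scaffold 1 rose and 2 fell. Dmd, dystrophin, rose (1.44, adjusted p = 0.0385), though not without sorted replicate 2 or any of the cortex libraries, and Utrn, the related utrophin, fell (-4.29 ± 0.79, adjusted p = 0.00141).

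Transcription factors of astrocytes and their precursors rose in 3 and fell in 3 of 15 tested, beside 12.2% higher and 16.9% lower among all tested genes, and nothing is read from that count. Id4, an inhibitor of differentiation, was at 517, 902 and 117 CPM in the sort, against 32.6, 55.8 and 79.7 CPM in cortex (3.16 ± 0.58, adjusted p = 0.00141). Rorb, a nuclear receptor that cortical neurons also make, was at 34.4, 32.1 and 38.8 CPM against 143, 291.5 and 614.5 CPM (-3.22 ± 0.61, adjusted p = 0.00173). Sox2 rose (4.26 ± 0.95, adjusted p = 0.00473) with 284 of its CPM in sorted replicate 2, against 45.7 and 25.1 CPM in replicates 1 and 3, and the call was lost without replicate 2. The number of falls was 1 without sorted replicate 1 or cortex replicate 1 or 3, and 5 without sorted replicate 2.

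Receptors through which astrocytes sense transmitters fell in 10 and rose in 2 of 20 tested, beside 12.2% higher and 16.9% lower among all tested genes. They fell in 5 on library totals alone or without cortex replicate 1 and in 6 without cortex replicate 3 or 5. The other counts of this paragraph stand beside the same shares, and nothing is read from those of the short thyroid and vasoactive lists. Gabbr1, a subunit of the GABA-B receptor, was at 5.07, 0.176 and 2.59 CPM in the sort against 50.4, 140.5 and 182 CPM in cortex (-5.61 ± 0.995, adjusted p = 0.00112). Adora2b, an adenosine receptor, rose, at 38.6, 113 and 20.4 CPM in the sort against 0, 0.108 and 3.45 CPM (6.32 ± 1.34, adjusted p = 0.00345). Adrb1, the β1 adrenoceptor, passed at 4.97 (adjusted p = 0.0123) through sorted replicate 2 alone, where it was at 440.5 CPM, against 0.390 and 8.54 CPM in replicates 1 and 3. Without replicate 2 its log2 fold change was -0.38. Secreted proteins of synapses and matrix fell in 6 and rose in 1 of 15, or fell in 10 without sorted replicate 3. Sparcl1, hevin, was at 18.8, 109.7 and 47.9 CPM in the sort against 420, 1134 and 1547 CPM in cortex (-4.19 ± 0.72, adjusted p = 0.000897). Of 4 tested genes of thyroid hormone handling 1 fell, or 2 without sorted replicate 1, 2 or 3. Dio2, the deiodinase with which astrocytes activate thyroid hormone, was at 0.390, 0 and 2.73 CPM against 279, 528 and 701 CPM (-8.82 ± 1.17, adjusted p = 0.000163). Of the vasoactive genes 2 of 9 fell, or 4 without sorted replicate 2, among them Ptgs1, a cyclooxygenase, with no count in the sort (at least 281-fold lower).

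Genes of reactive astrocytes were taken in 3 lists, whose counts stand beside 12.2% higher and 16.9% lower among all tested genes. Of the list shared by reactive states, 12 genes, 7 were tested, of which 4 rose and none fell, with sums of 881, 1176 and 2170 CPM in the sort against 72.7, 83.7 and 115 CPM in cortex. High sums of this list were not particular to this sort. In the fit with aSMCs of SMACreER:Ai14 mice they were 856, 1209 and 2145 CPM here and 1225 and 1365 CPM in those aSMCs. Of 10 genes tested there, 1 was higher in this sort and 1 lower, beside 3.90% higher and 11.7% lower among all genes tested in that fit. Vim, the intermediate filament vimentin, which ependymal cells also make, was at 637, 890 and 1176 CPM in the sort and at 22.6, 37.2 and 56.6 CPM in cortex (4.61 ± 0.48, adjusted p = 2.77e-05). Cd44, a receptor for hyaluronan, was at 30.7, 49.0 and 346 CPM against 0, 0.692 and 5.45 CPM (6.38 ± 1.134, adjusted p = 0.00112). Serpina3n, a secreted protease inhibitor, was at 13.2, 0.351 and 297 CPM in the sort, and its call was lost without replicate 3. Of the list of inflammatory reactivity 2 of 9 rose, Serping1 and Ggta1, and 2 fell. The number of rises was 0 without sorted replicate 3 or cortex replicate 1, 2, 3, 4 or 5, and 1 without cortex replicate 6, whereas 4 rose on library totals alone. Of the list of ischemic reactivity 4 of 6 tested rose and 1 fell. Tm4sf1, a membrane protein, was at 455, 759 and 467 CPM in the sort, against 4.66, 9.19 and 22.9 CPM in cortex (5.63 ± 0.60, adjusted p = 3.32e-05), and Cd109 was at 92.5, 118 and 160 CPM against 0, 0.0862 and 1.08 CPM (8.41 ± 1.03, adjusted p = 9.72e-05).

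Genes that respond to tissue dissociation varied between the sorted libraries. Their sum was 184 CPM in sorted replicate 1, 2151 CPM in replicate 2 and 1733 CPM in replicate 3, against 234, 478 and 858 CPM in cortex. Dusp1, a phosphatase of early response, was at 54.9, 1119 and 489 CPM in the sort against 53.1, 113 and 171.5 CPM in cortex (2.30 ± 0.68, adjusted p = 0.0202). In all, 3 of 14 rose and 1 fell, beside 12.2% higher and 16.9% lower among all tested genes. None rose without sorted replicate 2 or cortex replicate 2, and 1 without sorted replicate 3 or cortex replicate 1, 3, 4 or 5. The part of dissociation in the reactive genes was not tested.

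The largest falls held genes of neurons and microglia. Of these 15, Kif5a, a kinesin of neurons, was at 1.04, 0 and 0.630 CPM in the sort against 2538, 3498 and 5316 CPM in cortex (-12.57 ± 1.05, adjusted p = 9.11e-06), and Mlip had 1 count. The other 13 had no count in the sort. Among them were Csf1r, Ctss and Mpeg1, a pore-forming protein of macrophages, and the neuronal genes Adcy1, Nefl, Prkcb and Pde2a, with bounds from at least 934-fold lower for Mpeg1 to at least 2287-fold lower for Adcy1. Phactr1, Phactr3, Sowaha, Olfm1 and Ndrg4 were also among them. All 15 passed with each library left out in turn.

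Sorted replicates differed in the regional genes of the brain as well. Of the telencephalic transcription factors, which are made in cortex, Emx2 was at 2.21, 0 and 30.7 CPM in the sort and Lhx2 at 51.7, 0 and 63.1 CPM. Their differences from cortex did not pass (-1.39, adjusted p = 0.518, and -0.70, adjusted p = 0.686), and sorted replicate 2 had no count of either. None of the 5 genes of that list passed, and the estimates of Otx1 and Emx1 were positive (2.55 and 0.62). The list summed to 89.5, 0 and 125 CPM in the sort, against 35.3, 121 and 163 CPM in cortex. Of the transcription factors of caudal brain regions none could be tested. En2, which marks midbrain and cerebellum, was at 84.4, 0 and 24 CPM in the sort and had no count in any cortex library (at least 379-fold higher). Irx5 was at 31.3, 0.176 and 18.3 CPM with no cortex count, and Irx2 was at 0, 65.3 and 0 CPM with 1 count in cortex. Of these 3 genes, only Irx5 was detected in every sorted library, and its level in replicate 2 was close to 0. The 8 caudal genes on hand summed to 116, 65.5 and 42.5 CPM in the sort. In cortex their lowest, median and highest sums were 0.261, 1.77 and 21.2 CPM, so cortex was not free of them. Of the 8, 6 had no count in any cortex library and 3 had none in any sorted library. The labels name cerebral cortex as the tissue of the sort.

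**Figure D5:**
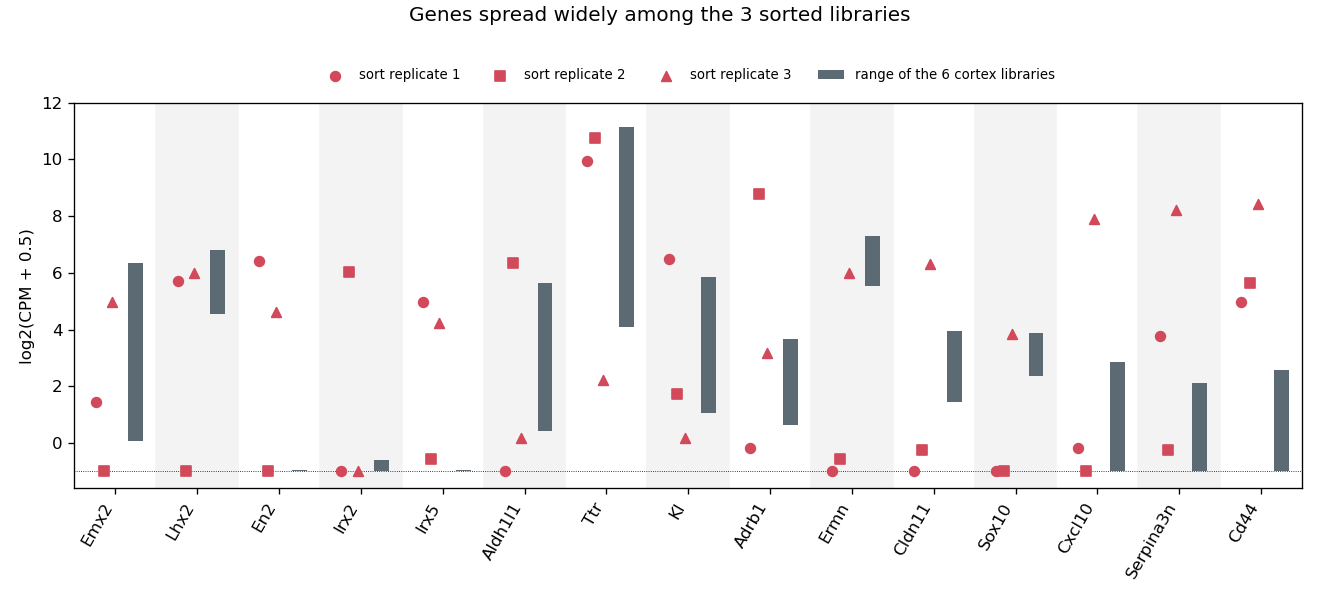
Levels of genes that differ among the 3 sorted libraries, as log2(CPM + 0.5), with a circle, a square and a triangle for replicates 1, 2 and 3 and a grey bar for the range of the 6 cortex libraries. The genes were chosen after values were seen. Aldh1l1 and Adrb1 are high in replicate 2 alone, Ermn and Cldn11 in replicate 3 alone, and En2 is absent from replicate 2.

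Set against the other tdTomato sort of the series, aSMCs of SMACreER:Ai14 mice (2 libraries), the same lists were counted. In a fit of these with the sort and cortex, 557 of 14270 genes (3.90%) were higher in the hGFAPCreER:Ai14 sort than in the aSMC sort and 1665 (11.7%) were lower. Of 10 ependymal genes 6 were higher, which was 1 without aSMC replicate 8 and 4 without aSMC replicate 7, and of 83 tested cilium family genes 22 were higher and none lower. Of the 22 astrocyte genes 9 were higher and 2 lower. Smooth muscle genes were lower in 10 of 12, with sums of 402, 134 and 133 CPM in the hGFAPCreER:Ai14 sort and 14270 and 16050 CPM in the aSMC sort. Of the inflammatory reactive list none was higher and 1 of 11 lower, with sums of 150, 268 and 381 CPM against 334.5 and 383 CPM. The ischemic list was higher in 3 and lower in 3 of 10, with sums of 582, 1992 and 993 CPM against 127.5 and 108.5 CPM. Dissociation genes were lower in 7 of 14 and higher in none, with sums of 179, 2212 and 1713 CPM against 8026 and 11540 CPM. With 2 libraries, and with all genes higher falling to 27 without aSMC replicate 8 and 111 without replicate 7, that comparison depends on single libraries.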

How the data were processed

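Bulk RNA-seq libraries of cells sorted from hGFAPCreER:Ai14 mice (n = 3), cortex homogenates labelled WT (n = 6) and sorted aSMCs were grouped by their labels. The values are whole-number raw counts per gene symbol as deposited by the authors, with no normalization. The submitters' processing notes list Salmon 1.4.0, Trim Galore 0.6.7, MultiQC 1.13 and FastQC 0.11.9, with the build GRCm38, and the paper's methods name htseq-count after TopHat. The sources used here do not give which of them made the counts, the annotation or the strand setting, so overlapping, antisense and near-identical genes cannot be told apart. The sort of these cells is not described in those methods.

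Genes were tested with edgeR 4.0.16 in R 4.3.3 on the 9 libraries (filterByExpr, TMM, quasi-likelihood F-test, Benjamini-Hochberg adjusted p under 0.05 over all tested genes). Genes with almost no counts in 1 group entered the test through the other group, so hardly more than 1 direction was open to them. Levels are CPM of the TMM-scaled library total. Bounds use 3 counts over a group without counts, and ratios on 1 to 3 counts have 95% exact Clopper-Pearson intervals, which cover counting error only. Permutation tests used a pseudocount of 0.5. On simulated counts for astrocytes versus cortex, 0% of genes changed by 2 and 53.5% of those changed by 4 on the log2 scale were recovered. Only 200 genes were set to change there, while the real fit called 1459 higher and 2030 lower. With so few changed genes the adjusted p threshold is harder to pass, so these rates do not measure recovery in the real fit. That fit called some changes under 2, such as Sox9, though moderate changes can still be missed. GENCODE M21 matched 97.4% of symbols to 1 gene, and promoters are RefSeq's, without those of chromosome 18. A few genes that the rule names are not reported here. Named genes were all astrocyte markers, of each other list the 2 with the highest mean level in the sort and the 2 most changed past the threshold, and the 15 largest changes each way with at least 10 CPM in the higher group and no overlap, leaving out predicted genes. Genes named otherwise, such as further members of a list, were chosen after their values were seen. Members and lists were chosen with earlier results of these data known.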

Additional observations from a re-analysis of the deposited data

Results flagged for a closer look

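Cortex replicates were compared with each other by the gap of the highest or lowest library over the range of the 6, against Dixon's 95% critical value, which chance passes in about 1 of 20 groups, over 39 sums and marker genes. In 3 of them the highest cortex library stood apart: the summed pericyte level at 1090 CPM, Rarres2 at 12.07 CPM and Kl at 56.72 CPM. Leaving out each cortex library in turn did not end the calls for Rarres2, which was higher in the sort, and gave none for Kl.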

How the results depend on the processing

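Of 154 named genes tested, 118 passed, of which 105 kept their call under each other scaling, 91 with each library left out in turn and 117 with DESeq2. A gene not tested in an alternative fit was counted as keeping its call there, so these numbers are upper limits. The same holds for the block fit below. With 1 library left out, the direction turned with a pass in either fit only for Aldh1l1 (-5.86 to 1.07) and Adrb1 (-0.38 to 5.55). Other named genes changed sign without passing in either fit, 6 of them without sorted replicate 2. Leaving out each library gave 1019 to 1557 genes higher and 1554 to 2781 lower. DESeq2 gave 3327 lower, and without cortex replicates 1 and 2 there were 893 higher and 1155 lower. With a log2 fold threshold of 1, 3 astrocyte markers were higher.

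Same-numbered libraries of the sort and cortex did not deviate together (correlations -0.047 to 0.040), so the numbers do not pair them. A fit with the replicate number as a block, on the 6 libraries numbered 1 to 3, called 346 genes higher and 720 lower, against 436 and 1067 on those 6 without it. It called 2 astrocyte markers and 25 cilium family genes higher, and kept 77 named genes.

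Against aSMCs of SMACreER:Ai14 mice, library totals alone gave 272 genes higher, and leaving out a library gave 27 to 912 higher and 664 to 2274 lower. The causes of these shifts were not tested. Depth limits genes of few counts, and with 3 sorted libraries that differ among themselves, changes present in 1 of them weigh heavily.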

Other observations

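Gene families chosen after the values were seen add to the description of the sort. Their counts stand beside 12.2% higher and 16.9% lower among all tested genes. Tubulins, the building blocks of microtubules, were higher in 4 of 11 tested and lower in 1. Tubb4b, a β-tubulin of cilia, was at 1242, 1348 and 890 CPM in the sort, against 7.18, 28.8 and 47.6 CPM in cortex (5.33 ± 0.60, adjusted p = 4.68e-05). Tuba1a was at 4413, 5736 and 3541 CPM against 149, 230 and 333 CPM (4.24 ± 0.41, adjusted p = 2.3e-05). These tubulins were even across the sorted libraries. Heat shock genes were higher in 13 of 23 tested and lower in 2, led by the chaperone Hsp90aa1 at 1980, 4548 and 1221 CPM in the sort, against 160, 187 and 230 CPM (3.75 ± 0.45, adjusted p = 8.6e-05), and Hspa2, at 350, 437 and 272 CPM in the sort (5.97 ± 0.83, adjusted p = 0.000229). Annexins, which bind membranes, were higher in 5 of 9, among them Anxa5 (4.07, adjusted p = 0.000373). Per kilobase of exon, mean levels were 6283 CPM in the sort and 901 CPM in cortex for counts under Lars2. They were 2019 and 107 CPM for Dbi, which binds acyl-CoA, and 1104 and 6.86 CPM for the surface protein Cd24a.

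Metabolic lists are given beside 12.2% higher and 16.9% lower among all tested genes. Lipid and cholesterol genes rose in 2 and fell in 2 of 19 tested, and Sqle, squalene epoxidase, was at 173, 377.5 and 40.0 CPM in the sort, against 6.82, 14.1 and 22.4 CPM in cortex (3.75 ± 0.68, adjusted p = 0.00133). Apoe, which carries lipid between cells, was at 342, 312 and 356 CPM against 117, 188 and 539 CPM (0.26, adjusted p = 0.789). Fatty acid oxidation genes rose in 1 and fell in 1 of 10, glycogen and glycolysis genes rose in 1 and fell in 2 of 13, and serine and glycine genes rose in 1 of 8. These single rises, of Acsl3, Pkm and Slc1a4, were lost without sorted replicate 2. Antioxidant genes rose in 5 of 13 and in 2 without sorted replicate 1 or cortex replicate 5. Mt3, a metallothionein, rose throughout, at 47.8, 49.5 and 32.4 CPM against 0, 0.694 and 1.44 CPM (5.88 ± 1.02, adjusted p = 0.000968).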
